A study of Homo sapiens with 6 samples.

Results

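The DEAD-box and DEAH-box proteins are RNA helicases, named after the letters of a conserved motif in their ATP-binding core. They use ATP to open RNA duplexes or to strip proteins from RNA, and they act at nearly every step of an RNA's life: transcription, splicing, export through the nuclear pore, translation, decay and the assembly of ribosomes in the nucleolus. Many work with protein partners that switch their ATPase activity on, such as G-patch proteins for the DEAH-box helicases. The genes studied here were those whose symbol begins with DDX or DHX followed by a number, with DDX58 and DDX60 left out. They were represented by 143 probe sets paired with 1 gene symbol each, which gave 52 genes of 18132 measured, 36 with a DDX and 16 with a DHX symbol. DDX11L2, which the rule took in, is annotated as a transcribed pseudogene and is counted but is no helicase gene. DDX3Y, on the Y chromosome, is counted too, did not pass the test, and is not described further.

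The cells were BCPAP, an established line of human papillary thyroid cancer. The shCSF2 group (3 arrays) had received lentivirus with a short hairpin RNA that targets CSF2, which encodes the cytokine GM-CSF, and the shCtrl group (3 arrays) lentivirus with a non-targeting hairpin. Both groups were selected with puromycin for 7 days from 48 hours after transduction, and the labels call the 3 arrays of each group biological replicates. Nothing says that these were separate cultures, so p-values measure the spread between these samples, which may be technical. How many hairpins or clones each group holds is not given in the sources used here, and no probe set was paired with CSF2, so the knockdown itself was not analysed here. Total RNA was read on Affymetrix PrimeView arrays, and all values are deposited log2 expression values, which are set against each other only within a probe set. No 2 arrays held identical values, the array medians lay between 5.77 and 5.79, and precision is limited by the number of arrays. Of the thyroid markers, PAX8 (mean log2 value 8.07 in shCSF2 and 8.11 in shCtrl cells) and NKX2-1 (9.37 and 9.78, lower in shCSF2 cells) had clear signal. TG (4.58 and 4.61) and TSHR (3.88 and 3.86), which mark differentiated thyroid cells, lay low in the arrays' range, as did the leukocyte gene PTPRC (2.33 and 2.35). So did the other leukocyte genes listed. The thyroid gene HHEX (7.85 and 7.74) also had clear signal, and FOXE1 read 6.15 and 6.03. The endothelial genes CDH5 (6.52 and 6.59) and PECAM1 (6.22 and 6.26) lay above FOXE1. KDR (6.05 and 6.06) lay near FOXE1 and VWF below it. Of the epithelial genes, KRT8 and KRT18 were bright and EPCAM intermediate. KRT19 (4.13 and 4.04) and CDH1 (3.62 and 3.52) lay low. The levels thus did not separate the lists cleanly. Of the marker lists, 1 of 6 thyroid genes and 1 of 5 epithelial genes (KRT8, -0.26) fell, and 0 of 4 leukocyte and 0 of 4 endothelial genes passed. Of all genes tested, 16.7% rose and 16.0% fell, and lists this short cannot be told from those shares. The part of these markers in the results below was not tested. As a sign of RNA integrity, the log2 signal of the 3′ minus the 5′ control probe set of GAPDH was -0.01, 0.00 and -0.02 on the shCSF2 arrays and -0.05, -0.03 and -0.03 on the shCtrl arrays, which did not overlap. The same measure for ACTB was 0.66, 0.61 and 0.57 on the shCSF2 arrays and 0.60, 0.63 and 0.54 on the shCtrl arrays, which overlapped. Their part was not tested either.

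Of the 52 helicase genes, 25 (48.1%) rose, 2 fell (DDX11 and DDX53) and 25 did not pass, by limma with an adjusted p below 0.05 over all 18132 genes. Over all genes tested, 32.7% were called, 16.7% higher and 16.0% lower. The log2 fold change (shCSF2 minus shCtrl) had a median of 0.12 over the helicase genes, against -0.03 over all genes, and was above 0 in 44 of the 52. On 29 of the 52 genes every shCSF2 array lay above every shCtrl array, and on 2 every shCSF2 array lay below, where 22.1% and 24.6% of all genes did so (46.7% in either direction). The changes were small. The 25 genes that rose did so by 1.09-fold (DDX50) to 1.53-fold (DDX20), with a median of 1.22-fold, and 2 of them (DDX20 and DDX19B) reached 1.5-fold. The median SD among the 3 arrays of a group was 0.04 on the log2 scale.

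**Figure D1:**
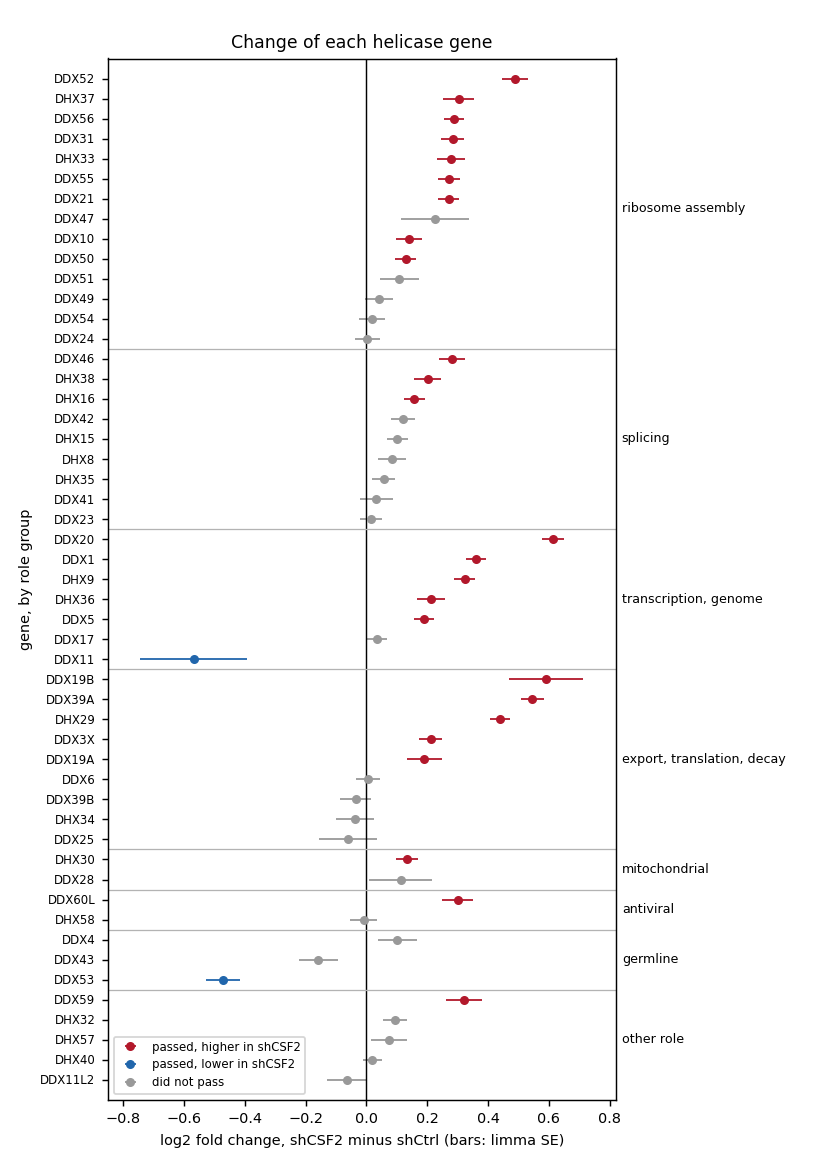
Log2 fold change (shCSF2 minus shCtrl) of the helicase genes other than DDX3Y, one per row and grouped by role, with limma standard errors as bars. Red points passed as higher in shCSF2, blue points (DDX11 and DDX53) passed as lower, and grey points did not pass; most points lie to the right of 0.

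Among the 48 helicase genes with a mean log2 value of at least 5, 25 rose and 2 fell, against 23.2% higher and 20.2% lower among the 12435 genes at that level. Of the genes with DDX symbols 17 of 36 rose and 2 fell, and of those with DHX symbols 8 of 16 rose and 0 fell. The rise was shared by the arrays: the median deviation from each gene's mean over the 6 arrays was 0.06, 0.07 and 0.07 on the shCSF2 arrays and -0.07 on each shCtrl array, while the same median over all genes stayed between -0.01 and 0.01. These are bulk RNA levels, so a change in the RNA per cell and a change in the share of cells that carry it cannot be told apart.

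**Figure D2:**
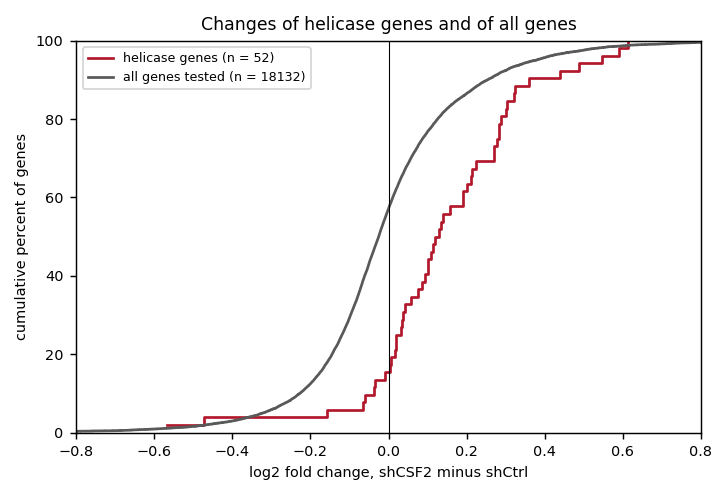
Cumulative percent of genes (vertical axis) against the log2 fold change, shCSF2 minus shCtrl (horizontal axis), for the 52 helicase genes in red and all 18132 genes in grey. The helicase curve lies to the right over most of the range, with a median of 0.12 against -0.03.

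The stretch before the start site is shown for a few of the genes that passed. RefSeq promoters (GRCh38.p14) were matched for 47 of the 52 genes, and the 250 bases before the start were searched on both strands for 4 short motifs: the E-box CACGTG, bound by MYC-type factors, the ETS site CCGGAAG, the GC box GGGCGG and the TATA box TATAAA. The ETS site stood in 16 of the 47 helicase promoters (34.0%), against 12.1% of the promoters of the 14425 measured genes with an entry. It was in 11 of the 23 matched promoters of genes that rose and in 5 of the 22 of genes that did not pass. The E-box was in 7 of 47 (14.9%, against 7.83%), but in 2 of the 23 that rose and 5 of the 22 that did not pass. The GC box was in 53.2% (against 57.2%) and the TATA box in 4.26% (against 8.77%). DDX31 and DDX5 are printed because they are the 2 genes that rose and hold both an E-box and an ETS site. DDX20 had the largest rise and DDX53 the steadier fall, and neither holds any of the 4 motifs in this window. Capitals mark the motif matches, none of which share a base, although an ETS site and a GC box lie end to end in DDX31. A match in letters is a description and not a bound site.
DDX31, chr9:132669984-132670233, - strand: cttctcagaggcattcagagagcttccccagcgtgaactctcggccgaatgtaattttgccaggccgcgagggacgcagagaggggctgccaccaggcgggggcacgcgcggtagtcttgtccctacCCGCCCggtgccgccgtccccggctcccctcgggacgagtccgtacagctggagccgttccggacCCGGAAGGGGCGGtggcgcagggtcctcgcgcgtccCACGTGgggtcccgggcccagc
DDX5, chr17:64506639-64506888, - strand: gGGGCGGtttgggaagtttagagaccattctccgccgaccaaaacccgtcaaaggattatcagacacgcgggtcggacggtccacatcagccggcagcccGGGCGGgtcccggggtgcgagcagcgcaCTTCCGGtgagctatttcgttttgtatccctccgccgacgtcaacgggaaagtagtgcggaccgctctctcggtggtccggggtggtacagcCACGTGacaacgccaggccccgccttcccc
DDX20, chr1:111755651-111755900, + strand: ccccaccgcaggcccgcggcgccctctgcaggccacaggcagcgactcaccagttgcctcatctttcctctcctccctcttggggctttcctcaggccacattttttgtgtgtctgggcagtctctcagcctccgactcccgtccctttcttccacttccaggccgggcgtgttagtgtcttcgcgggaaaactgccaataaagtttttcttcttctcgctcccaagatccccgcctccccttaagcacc
DDX53, chrX:22999710-22999959, + strand: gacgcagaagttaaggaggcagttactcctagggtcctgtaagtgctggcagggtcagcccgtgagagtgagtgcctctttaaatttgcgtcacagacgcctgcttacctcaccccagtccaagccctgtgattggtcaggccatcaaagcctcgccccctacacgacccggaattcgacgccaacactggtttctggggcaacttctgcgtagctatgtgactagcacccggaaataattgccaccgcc

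The helicases of ribosome assembly work in the nucleolus, where they remodel the precursor of ribosomal RNA and release small nucleolar RNAs from it. Of the 14 measured, 9 rose (64.3%), 0 fell and 5 did not pass, with a median log2 fold change of 0.25. All 14 values were above 0 by the brightest probe sets. Among all genes with a mean log2 value of at least 5, 23.2% rose and 20.2% fell. DDX52, whose yeast (Saccharomyces cerevisiae) counterpart Rok1 acts on the small-subunit precursor, had log2 values of 8.12, 8.21 and 8.10 on the shCSF2 arrays and 7.68, 7.64 and 7.65 on the shCtrl arrays. The groups lie well apart, a rise of 1.403-fold (log2 fold change 0.49 ± 0.04, SE, limma adjusted p = 0.000233), and all 3 of its probe sets passed as higher. DHX37, the counterpart of yeast Dhr1, which frees a small nucleolar RNA from the early precursor, read 6.575, 6.4998 and 6.528 in shCSF2 and 6.144, 6.243 and 6.308 in shCtrl cells (0.30 ± 0.05, adjusted p = 0.00384). DDX56 and DDX31, related to the yeast large-subunit factors Dbp9 and Dbp7, rose by 0.29 ± 0.03 and 0.28 ± 0.04. DDX56 lay at 8.73, 8.70 and 8.73 in shCSF2 against 8.43, 8.42 and 8.45 in shCtrl cells. DDX31 lay at 7.51, 7.53 and 7.54 against 7.27, 7.19 and 7.27, and 4 of its 7 probe sets passed, all as higher. Of the others 1 lay at -0.19, the mean of all 7 gave 0.17 (adjusted p = 0.0131), and the call was lost with the most variable probe set (adjusted p = 0.0571).

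DDX21, a nucleolar helicase that couples transcription by RNA polymerase I with processing of the transcript, gave 11.946, 11.998 and 11.952 in shCSF2 and 11.681, 11.729 and 11.676 in shCtrl cells. Its lowest shCSF2 array exceeded its highest shCtrl array, for a 1.21-fold rise (0.27 ± 0.04, adjusted p = 0.00136) seen in all 3 probe sets. Its close relative DDX50, also nucleolar, rose by less (0.13 ± 0.03, adjusted p = 0.0273). The changes of DDX21 and DDX50 differed by 0.14, a pair compared after their values were seen, with p = 0.1 in an exact two-sided permutation test, the smallest that 3 arrays against 3 allow. DHX33, linked to transcription of ribosomal DNA, and DDX55, related to yeast Spb4, rose by 0.28 and 0.27. DDX10, related to yeast Dbp4, rose by 0.14 with an adjusted p of 0.0448. The calls of DDX50 and DDX10 were each lost in 5 of the 6 fits without 1 array. DDX24 (0.00), DDX54 (0.02), DDX49 (0.04), DDX51 (0.11) and DDX47 (0.22) did not pass. DDX47 read 2.16, 2.26 and 1.87 in shCSF2 and 1.99, 1.72 and 1.90 in shCtrl cells by its only probe set of its own, close to the lowest value on the arrays, 1.45. One of the 4 probe sets of DDX54 passed as lower (-0.25), and 1 of the 3 of DDX51 as higher (0.34). By the mean of all probe sets DDX54 lay at -0.07 and DDX51 at 0.21 (limma adjusted p = 0.166 and 0.0046).

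**Figure D3:**
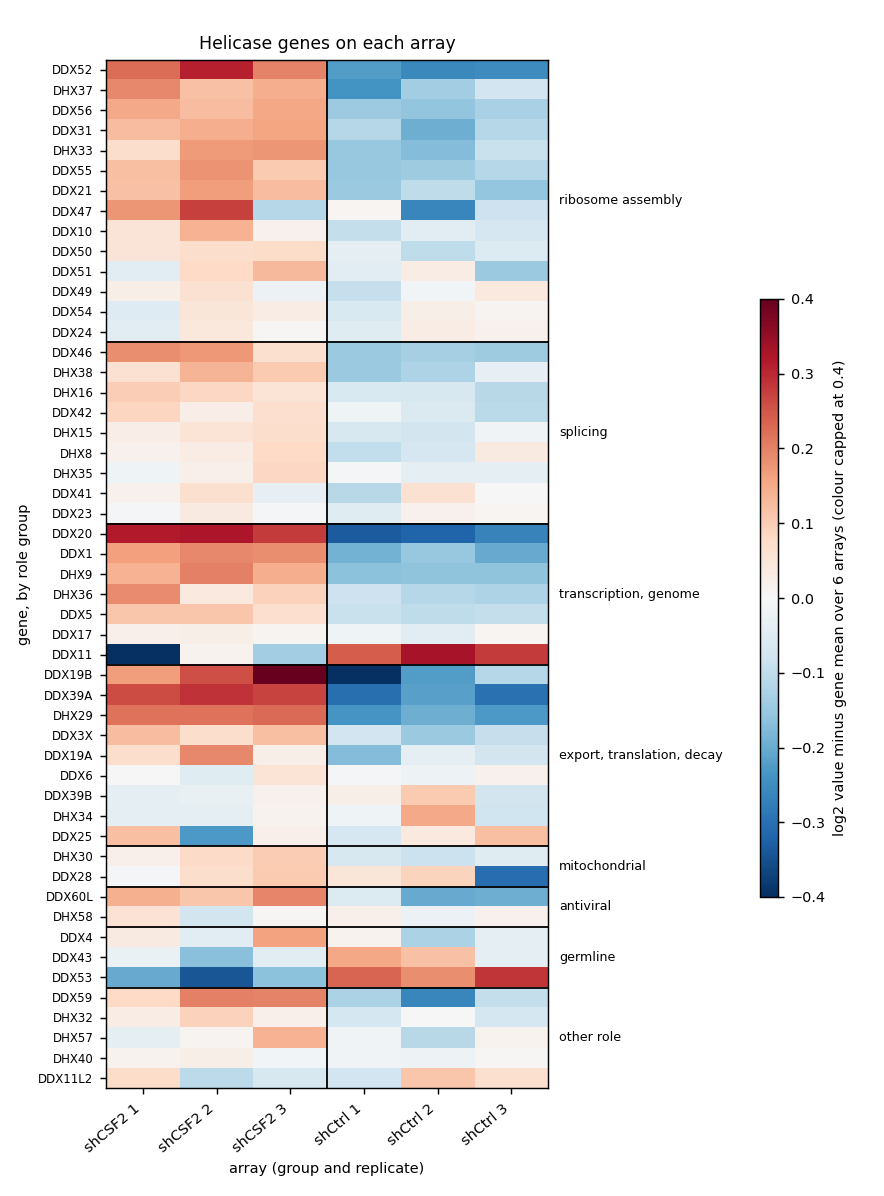
Deviation of each array's log2 value from the gene's mean over the 6 arrays, for the helicase genes other than DDX3Y (rows, by role group) on the 3 shCSF2 and 3 shCtrl arrays (columns). Colours are capped at 0.4. Red blocks on the shCSF2 side and blue blocks on the shCtrl side show the genes that rose, and DDX11 and DDX53 show the opposite.

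The splicing helicases drive the spliceosome through its cycle, each at its own step. Of 9 measured, 3 rose (33.3%), 0 fell and 6 did not pass, with a median of 0.10. All 9 values were above 0 by the brightest probe sets. For so small a group, 33.3% is not far from the 23.2% of all genes with a mean log2 value of at least 5. DDX46 (Prp5), which acts when the branch site is first recognised, lay at 9.34, 9.33 and 9.22 in shCSF2 and 9.01, 9.03 and 9.01 in shCtrl cells. That is a rise of 0.28 ± 0.04 (adjusted p = 0.00254), although only 1 of its 2 probe sets passed, the other was at -0.02, and their mean gave 0.13 (adjusted p = 0.0183). DHX38 (Prp16), which remodels the spliceosome between the catalytic steps, rose by 0.20 ± 0.04 in 1 of 4 probe sets (0.12 by their mean, adjusted p = 0.0210), and DHX16 (Prp2), which activates it, by 0.16 ± 0.03 in both of its probe sets. DDX42, which binds the branch-site recognition complex, missed the threshold narrowly. It had 8.68, 8.62 and 8.66 in shCSF2 and 8.58, 8.54 and 8.49 in shCtrl cells, which do not overlap (0.12 ± 0.04, adjusted p = 0.0526). DHX15 (Prp43), which takes spent spliceosomes apart, was close behind, with 10.79, 10.82 and 10.84 in shCSF2 and 10.70, 10.69 and 10.75 in shCtrl cells (0.10 ± 0.04, adjusted p = 0.0661). The calls of DDX42 and DHX15 depended on the processing. Both passed with median centring (limma adjusted p = 0.0294 and 0.0271) but not with quantile normalisation again (0.191 and 0.109). DHX8 (0.08), DHX35 (0.06), DDX41 (0.03) and DDX23 (0.02) did not pass, and 1 of the 3 probe sets of DHX8 passed as lower (-0.17). By the mean of all their probe sets, DHX8 (-0.03) and DHX35 (-0.03) lay below 0.

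Among 7 helicases of transcription, RNA assembly and the genome, 5 rose (71.4%), 1 fell (14.3%) and 1 did not pass. The shares of all genes with a mean log2 value of at least 5 were 23.2% and 20.2%, and 7 genes are few to set against them. DDX20, also called Gemin3, belongs to the SMN complex that loads Sm proteins onto spliceosomal RNAs. It had 8.29, 8.29 and 8.25 on the shCSF2 arrays and 7.64, 7.65 and 7.70 on the shCtrl arrays. The gap was far wider than the spread within either group, a 1.53-fold rise (0.61 ± 0.04, adjusted p = 6.5e-05), and its second probe set rose by 0.49. DDX1, a subunit of the tRNA ligase complex, read 9.77, 9.80 and 9.79 in shCSF2 and 9.42, 9.46 and 9.41 in shCtrl cells, 1.28-fold higher (0.36 ± 0.03, adjusted p = 0.000331). DHX9 (RNA helicase A), which unwinds long double-stranded RNA and takes part in transcription, read 8.49, 8.55 and 8.49 in shCSF2 cells. It was nearly constant at 8.18, 8.19 and 8.19 in shCtrl cells, so that it was 1.251-fold higher in shCSF2 cells (0.32 ± 0.03, adjusted p = 0.000551). Its 3 probe sets all passed, at 0.32, 0.48 and 0.50. DHX36, which opens G-quadruplexes, rose by 0.21 ± 0.05.

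DDX5 and DDX17 are close relatives that act as transcriptional coactivators and in splicing. DDX5 lay at 11.81, 11.81 and 11.77 in shCSF2 and 11.61, 11.60 and 11.61 in shCtrl cells, a rise of 0.19 ± 0.03 (adjusted p = 0.00435). All 5 probe sets of DDX5 passed as higher, 4 of them between 0.17 and 0.19 and the dimmest at 0.62. DDX17 lay at 10.62, 10.63 and 10.61 in shCSF2 and 10.59, 10.56 and 10.61 in shCtrl cells and did not pass (0.04 ± 0.03, adjusted p = 0.462). The changes of DDX5 and DDX17 differed by 0.16, with p = 0.1 in an exact two-sided permutation test, the smallest possible, and p = 0.1 after adjustment over the 4 pairs compared.

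DDX11, a DNA helicase of sister chromatid cohesion, was the member with the largest fall and the least even one. It had 7.260, 8.002 and 7.847 on the shCSF2 arrays and 8.231, 8.318 and 8.266 on the shCtrl arrays. The groups did not overlap, but shCSF2 replicate 1 stood well below the other shCSF2 arrays, and the SD in that group was 0.39, against 0.04 in shCtrl cells. The fall was 1.48-fold (-0.57 ± 0.18, adjusted p = 0.0461), and -0.35 without shCSF2 replicate 1 (adjusted p = 0.00908). The call was lost without shCSF2 replicate 3 and without each shCtrl replicate in turn. Only 1 of its 4 probe sets passed, and the mean of all 4 gave -0.09 (adjusted p = 0.217). Near-identical copies of DDX11 exist in the genome, including the pseudogene DDX12P, so its probes may read several transcripts.

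**Figure D4:**
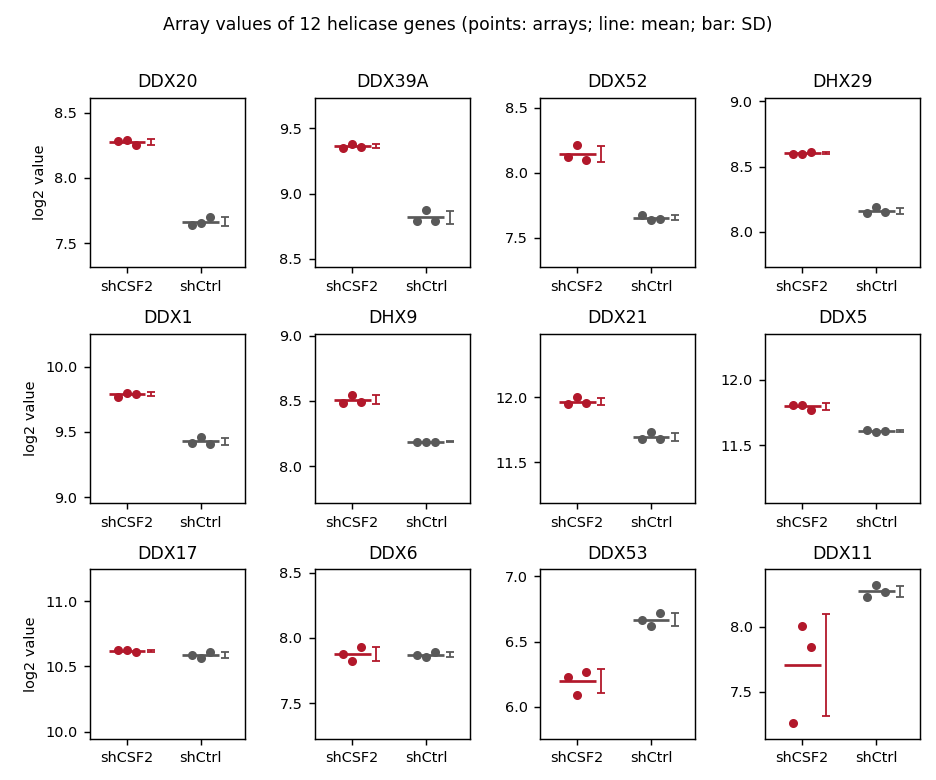
Log2 values of 12 helicase genes on the 3 shCSF2 arrays (red, left) and the 3 shCtrl arrays (grey, right) of each panel, with group means as lines and SD as bars; all panels span the same number of log2 units. DDX20, DDX39A, DDX52, DHX29, DDX1, DHX9, DDX21 and DDX5 lie higher in shCSF2 cells, DDX17 and DDX6 lie nearly level, and DDX53 and DDX11 lie lower.

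Of the 10 helicases of mRNA export, translation and decay, 5 rose, 0 fell and 5 did not pass. The shares of all genes with a mean log2 value of at least 5 were 23.2% higher and 20.2% lower. A group of 10 genes is small to set against them. DDX39A, which with its relative DDX39B prepares mRNA for export as part of the TREX complex, had 9.35, 9.38 and 9.36 in shCSF2 and 8.79, 8.87 and 8.79 in shCtrl cells. This was a 1.46-fold rise (0.55 ± 0.04, adjusted p = 0.000113), with its other probe set at 0.58. DDX39B did not pass by the only probe set paired with it alone. That probe set read 6.12, 6.13 and 6.18 in shCSF2 and 6.19, 6.27 and 6.09 in shCtrl cells (-0.04 ± 0.05, adjusted p = 0.645). The 7 probe sets that DDX39B shares with a read-through transcript all lay higher in shCSF2 cells, by 0.17 to 0.27. By the probe sets paired with 1 gene each, the changes of DDX39A and DDX39B differed by 0.58 (exact two-sided permutation p = 0.1, the smallest possible).

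DDX19B and DDX19A are near-identical helicases that release mRNA at the cytoplasmic face of the nuclear pore. DDX19B was dim, at 5.33, 5.42 and 5.62 in shCSF2 and 4.62, 4.94 and 5.05 in shCtrl cells, with no overlap and a 1.51-fold rise (0.59 ± 0.12, adjusted p = 0.0099). DDX19A lay at 8.22, 8.35 and 8.18 in shCSF2 and 7.98, 8.12 and 8.08 in shCtrl cells. Its rise of 0.19 ± 0.06 (adjusted p = 0.0435) was lost in 5 of the 6 fits without 1 array. The changes of DDX19B and DDX19A differed by 0.40 (exact two-sided permutation p = 0.1), and since the transcripts are so alike, each probe set may read both.

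DHX29, which helps the ribosome scan through structured mRNA leaders, was among the most even of the rises. It read 8.60, 8.60 and 8.61 in shCSF2 and 8.14, 8.19 and 8.15 in shCtrl cells, 1.36-fold higher (0.44 ± 0.03, adjusted p = 0.000137), by 1 probe set. DDX3X, an X-linked helicase that promotes translation of structured mRNAs, read 11.19, 11.14 and 11.19 in shCSF2 and 10.99, 10.92 and 10.97 in shCtrl cells (0.21 ± 0.04, adjusted p = 0.00484). Of its 8 probe sets, 3 passed, all as higher. DDX6, which holds silenced mRNAs in P-bodies and promotes decapping, was flat at 7.88, 7.83 and 7.93 in shCSF2 and 7.87, 7.85 and 7.89 in shCtrl cells (0.01 ± 0.04, adjusted p = 0.935). Its dimmer probe sets lay at 0.14 and 0.21, and the mean of all 3 gave 0.12 (adjusted p = 0.0432). DHX34 (-0.04), a factor of nonsense-mediated decay, and DDX25 (-0.06), a testis helicase with readings between 2.26 and 2.61, did not pass.

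The remaining groups are small. Of the helicases of the mitochondrial ribosome, DHX30 had 8.38, 8.44 and 8.46 in shCSF2 and 8.29, 8.27 and 8.31 in shCtrl cells. It rose by 0.13 ± 0.04 (adjusted p = 0.0301), a call lost in 5 of the 6 fits without 1 array. DDX28 did not pass by its brightest probe set, with 6.723, 6.801 and 6.834 in shCSF2 and 6.777, 6.819 and 6.423 in shCtrl cells (0.11 ± 0.10). Its probe sets disagreed, at 0.11, 0.60 and -0.04, and the second of these passed. Their mean gave 0.22 (limma adjusted p = 0.0142). Of the antiviral helicases, DDX60L, an interferon-induced gene, read 6.77, 6.74 and 6.83 in shCSF2 and 6.57, 6.43 and 6.44 in shCtrl cells (0.30 ± 0.05, adjusted p = 0.00409). DHX58, also called LGP2, a regulator of viral RNA sensing, had 6.77, 6.64 and 6.72 in shCSF2 and 6.74, 6.69 and 6.73 in shCtrl cells and did not pass (-0.01 ± 0.04).

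Of the 3 germline helicases, 0 rose and 1 fell, a group too small to set against the shares over all genes. DDX53, a cancer-testis gene on the X chromosome, lay at 6.23, 6.09 and 6.27 in shCSF2 and 6.67, 6.62 and 6.72 in shCtrl cells, 1.39-fold lower (-0.47 ± 0.06, adjusted p = 0.00087). Both of its probe sets fell, the dimmer by 0.63, and its call held in each of the 6 fits without 1 array. DDX43, another cancer-testis gene, was dim, at 4.04, 3.90 and 4.02 in shCSF2 and 4.22, 4.19 and 4.03 in shCtrl cells (-0.16 ± 0.06, adjusted p = 0.105). DDX4, the germ cell marker VASA, lay at 2.67 ± 0.10 in shCSF2 and 2.57 ± 0.07 in shCtrl cells (SD, n = 3), near the floor of the arrays.

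Of 5 genes of other or less settled role, 1 rose (20.0%) and 0 fell, a share near the 23.2% of genes with a mean of at least 5. The gene that rose was DDX59, mutated in a human ciliopathy, with 6.26, 6.38 and 6.38 in shCSF2 and 6.06, 5.92 and 6.09 in shCtrl cells. Its rise of 0.32 ± 0.06 (adjusted p = 0.00541) was seen in all 4 probe sets. DHX32 had 8.47, 8.53 and 8.46 in shCSF2 and 8.37, 8.44 and 8.37 in shCtrl cells and did not pass (0.09 ± 0.04, adjusted p = 0.116). DHX40 was flat at 9.02, 9.03 and 8.99 in shCSF2 and 8.99, 8.98 and 9.01 in shCtrl cells (0.02 ± 0.03). One of its 3 probe sets passed as lower (-0.14). DHX57 (0.07) and the pseudogene DDX11L2 (-0.06) did not pass.

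Among the probe sets behind these genes, more passed as higher than as lower, and most did not pass. Probe sets of 1 gene are not separate measures, so genes with many of them weigh more in these counts. Of the 143, 57 (39.9%) passed as higher and 6 (4.2%) as lower, against 15.6% and 14.2% of the 44988 probe sets with 1 symbol. Of the 25 genes that rose, 8 had 1 probe set. Among the other 17, every probe set passed as higher in 10 genes, and none had a probe set that passed as lower. In this fit over probe sets, the only probe set of DDX10 (limma adjusted p = 0.0578) and the brightest of DDX19A (0.0507) did not pass. These 17 genes all still passed as higher when the probe sets of a gene were averaged. For the 8 genes with 1 probe set the average is that same probe set, so averaging says nothing about them.

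The helicases act with partner proteins, and 72 such genes in 5 lists were read beside them. Of these, 29 were higher and 6 lower in shCSF2 cells (40.3% and 8.33%), against 16.7% and 16.0% of all genes and 23.2% and 20.2% of the genes with a mean log2 value of at least 5. Their median log2 fold change was 0.10. G-patch proteins, which activate DEAH-box helicases such as DHX15 and include several splicing factors, had the largest share, with 13 of 21 higher and 3 lower and a median of 0.18. GPATCH4, a nucleolar member, read 8.54, 8.59 and 8.54 in shCSF2 and 7.90, 7.89 and 7.95 in shCtrl cells (0.65 ± 0.04, adjusted p = 5.86e-05). The splicing factor RBM17 read 9.61, 9.62 and 9.57 in shCSF2 and 9.10, 9.10 and 9.08 in shCtrl cells (0.51 ± 0.03, adjusted p = 9.18e-05). SUGP2 (-0.30 ± 0.03) and GPATCH2L (-0.25 ± 0.04) fell most. RBM17 rose in 3 of its 4 probe sets (0.30 by their mean) and GPATCH4 in 2 of 3 (0.44 by their mean).

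**Figure D5:**
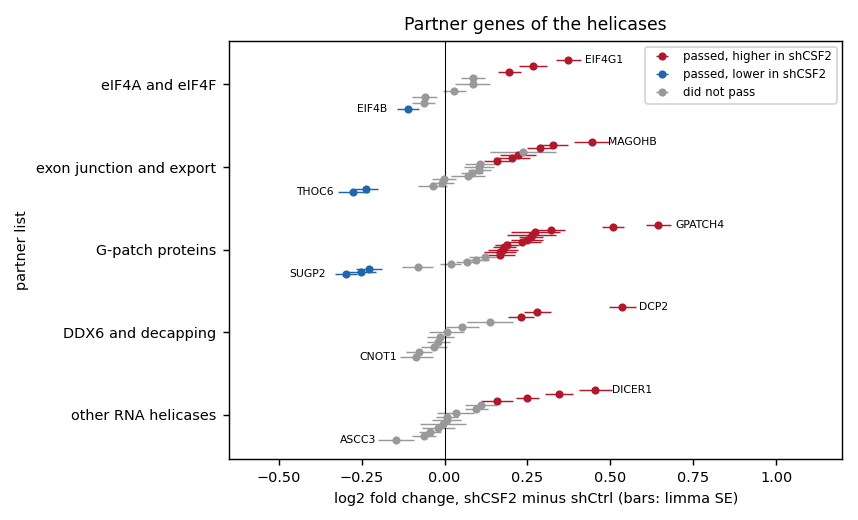
Log2 fold change (shCSF2 minus shCtrl, limma standard errors as bars) of the partner genes in 5 lists, ordered by change within each list. Red points passed as higher, blue points as lower and grey points did not pass; the G-patch list has the most red points, 13 of 21, and the labelled genes have the largest change in each direction of their list.

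The DEAD-box helicase of translation initiation, eIF4A, and its partners had 3 of 9 genes higher (33.3%) and 1 lower (11.1%). EIF4G1, the scaffold that activates eIF4A, read 9.45, 9.47 and 9.44 in shCSF2 and 9.05, 9.05 and 9.13 in shCtrl cells (0.37 ± 0.04, adjusted p = 0.000408). EIF4A3, the helicase at the core of the exon junction complex, rose by 0.27 ± 0.04. EIF4B, a cofactor of eIF4A, was the member that fell (-0.11 ± 0.03), a call lost in each of the 6 fits without 1 array. EIF4A1 (0.08 ± 0.05) and EIF4A2 (-0.06 ± 0.03), named outside the rule, did not pass, although 3 of the 4 probe sets of EIF4A1 passed as higher. The mean of those 4 probe sets gave 0.15 (limma adjusted p = 0.0072). Of the 4 probe sets of EIF4A2, 1 passed as higher, and their mean gave 0.10 (limma adjusted p = 0.0997). Of 17 exon junction and export genes, 6 rose (35.3%) and 2 fell (11.8%). Both lists are small, and 23.2% of all genes with a mean log2 value of at least 5 rose and 20.2% fell. MAGOHB, an exon junction subunit that works with EIF4A3, rose by 0.44 ± 0.06 with its brighter probe set, the only 1 of 2 that passed, and by 0.28 with the mean of both. THOC7, a TREX subunit, rose by 0.33 ± 0.04. THOC6, another TREX subunit, fell by 0.28 on the log2 scale. SARNP, which binds DDX39B, fell by 0.24 with its brightest probe set, but of its 4 probe sets 2 passed as lower and 1 as higher.

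Of 11 genes that act with DDX6 in decapping, 3 rose (27.3%) and 0 fell, a share near the 23.2% of genes with a mean of at least 5. DCP2, the decapping enzyme, read 9.24, 9.34 and 9.26 in shCSF2 and 8.73, 8.75 and 8.75 in shCtrl cells (0.54 ± 0.04, adjusted p = 0.00014), and its activator DCP1A rose by 0.28 ± 0.04. Of 14 RNA helicases outside the DDX and DHX names, 4 rose (28.6%) and 0 fell, again near that share. DICER1, which cuts microRNA precursors, rose by 0.46 ± 0.05, and SUPV3L1, the helicase of mitochondrial RNA decay, by 0.35 ± 0.04.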

How the data were processed

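Total RNA (200 ng) from 3 shCSF2 and 3 shCtrl samples of BCPAP cells was labelled and hybridised to PrimeView arrays, per the labels' protocols. Samples were grouped by their titles. The deposited values are on a log2 scale, with 1 value for each probe set on each array. RMA, oligo and limma stand in the submitters' processing notes, with neither version nor role. RMA shrinks differences at low signal, so changes of dim genes may be understated. The genome build is not given in the sources used here. No probe-level data or detection calls were used here. Other background corrections were therefore not tried, and no gene was called absent.

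Of 49395 probe sets, 102 were controls, 44988 were paired with 1 symbol by the platform annotation, 1832 with several and 2473 with none. Each of 18132 genes was read by its brightest probe set, taken as the one whose mean over all 6 arrays was highest. Symbols were checked by gene identifier against the RefSeq table of GRCh38.p14, and 0 changed. For 27 probe sets the identifier had no match there, so their annotated symbol was kept unchecked. Differences were fitted over all genes with limma 3.58.1 in R 4.3.3 (lmFit and eBayes), with no block, dim-gene filter or variance trend. Benjamini-Hochberg adjustment ran over the whole table, and an adjusted p under 0.05 passed. Errors are moderated standard errors. The fit was tested on simulated data. Gene pairs were compared by exact permutation over arrays. Figures were drawn with matplotlib 3.10.9.

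The members, role groups and partner lists were chosen with earlier results of these data known. Values on every array are given for helicase genes named by a rule. It took, in each direction, the 12 helicase genes with the largest change that passed, with no overlap of the groups and the higher group's mean at 6 or more. It also took 9 helicases of close pairs or well-known role, and in each role group the brightest gene and the failing gene nearest the threshold. From each partner list it took the 2 passing genes with the largest change in each direction, of which some are given with array values and the rest by their changes only. Other genes are given for completeness, by their changes only or with a level, and were described with their values known. The alternatives were 2 filters on dim genes, 3 normalisations, a robust fit with a variance trend, weights for the arrays, 2 other choices of probe set, a block for the replicate number, and fits that each left out 1 array.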

Additional observations from a re-analysis of the deposited data

Results flagged for a closer look

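Several probe sets pair a helicase gene with another gene and so stood outside the comparison, but lay higher on every shCSF2 array than on any shCtrl array. They are given as values, without a test. Of all genes tested, 22.1% lay wholly above in this way and 24.6% wholly below, so such a gap is common here. The 7 probe sets of DDX39B below are not separate results, since they are paired with the same genes. The 7 probe sets paired with DDX39B and the read-through transcript ATP6V1G2-DDX39B had mean log2 differences (shCSF2 minus shCtrl) of 0.17, 0.18, 0.20, 0.20, 0.21, 0.21 and 0.27. The brightest of the 7 read 10.25, 10.31 and 10.24 in shCSF2 and 9.97, 10.02 and 10.01 in shCtrl cells. The probe set paired with DDX19B and DDX19A together differed by 0.27, at 9.14, 9.18 and 9.13 in shCSF2 and 8.81, 8.90 and 8.93 in shCtrl cells. The probe set paired with DDX47 and APOLD1 differed by 0.10, at 9.70, 9.71 and 9.69 in shCSF2 and 9.61, 9.62 and 9.59 in shCtrl cells. The probe set paired with SS18 and DDX27 differed by 0.23, at 9.59, 9.59 and 9.60 in shCSF2 and 9.33, 9.33 and 9.42 in shCtrl cells. Of the 4 probe sets paired with DDX11 and its copies, 0 lay above and 1 lay below, at a difference of -0.16.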

How the results depend on the processing

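The count of helicase genes that rose, 25, lay between 21 and 30 over the 16 alternatives, and the median log2 fold change of the helicase genes exceeded that of all genes in each of them, by 0.12 to 0.21. It was 22 with the replicate number as a block (replicate block), 21 with quantile normalisation again, 30 with the mean of all probe sets and 24 with the most variable probe set. In the fits without 1 array it was 21 to 24. The count that fell, 2, was 1 with the mean of all probe sets, with median centring and with the variance trend, where DDX11 was lost, and 4 with the most variable probe set, where DDX54 and DHX40 joined DDX11 and DDX53. It was 1 to 2 in the fits without 1 array. The value of DHX40 turned to -0.14 with the most variable probe set (adjusted p = 0.0451), which is another probe set of that gene. The weakest calls were those of DDX10, DDX19A, DDX50 and DHX30, which 2 or more of the alternatives with all arrays ended, and of DDX11. The call of DDX31 was lost with the most variable probe set. The fits without 1 array gave 4918 to 5142 genes passing over the whole table, 21 to 23 partner genes higher and 5 lower. Of 489 values of named genes under the alternatives, 447 kept their direction where it was called and their side of the threshold, 23 lost the call, 18 gained one and 1 reversed. Same-numbered arrays of the 2 groups correlated by 0.03, 0.05 and 0.03 in their deviations from the group means, so the numbers were not taken to pair the samples. Signal near the floor limits what can be said of DDX4, DDX25 and DDX47.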
